A study of Mus musculus with 8 samples.

Results

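Arginine, asymmetric dimethylarginine (ADMA) and tetrahydrobiopterin metabolism is described here through 10 genes: the arginases Arg1 and Arg2, the arginine-making enzymes Ass1 and Asl, the dimethylarginine hydrolases Ddah1 and Ddah2, and Gch1, Gchfr, Pts and Spr of cofactor synthesis. They were picked by symbol, by what their products do, and all 10 had a row among the 15728 genes listed. The tissue was lung from mice labelled Triply n/i/eNOSs-/-, which lack all 3 nitric oxide synthase isoforms, neuronal, inducible and endothelial (knockout, n = 4), and from wild type mice (n = 4). Both genotypes were labelled C57BL/6J, were 4 weeks old and were unexposed. Capped 5′ ends of RNA were counted by cap analysis of gene expression (CAGE) and deposited as CPM, reads per 1000000 reads assigned to genes. The labels give no sex, litter or collection time, so p-values measure the spread between these mice only.

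Nitric oxide synthases turn arginine into nitric oxide and citrulline and need tetrahydrobiopterin (BH4) as a cofactor. Arginases compete with them for arginine, and argininosuccinate synthase and lyase rebuild arginine from citrulline. ADMA, released when methylated proteins are degraded, occupies the arginine site of the synthases, and dimethylarginine hydrolase activity breaks it down. BH4 is made from GTP in consecutive steps that start with GTP cyclohydrolase, the enzyme limiting the pathway in most cells. In lung these enzymes are spread over endothelium, epithelium and macrophages, and arginase is best known there from activated macrophages.

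Library totals were 13014134 to 15096188 reads in the knockout and 15598154 to 18593913 reads in wild type, so every knockout library was the shallower. Nos3, the endothelial synthase, was at 5.56, 8.32, 8.83 and 6.76 CPM in knockout lungs and at 18.2, 22.8, 19.8 and 18.6 CPM in wild type lungs (log2 fold change -1.39, SE 0.137, limma adjusted p = 4.58e-05). CAGE reads mark the start of a transcript, and the labels do not place the Nos3 deletion relative to it, so a remaining signal does not contradict the label. Nos1 and Nos2 were looked up and had no row among the genes listed. Knockout replicate 1 stood apart in circadian clock genes. All 14 clock genes tested were called by limma, 4 higher and 10 lower in the knockout, against 30.9% of all genes tested. Their summed level, which mixes both directions, was 552 CPM in knockout replicate 1 and 337 to 352 CPM in the other 3 knockout libraries. In wild type it was 759 to 814 CPM. All 7 ciliated cell markers were tested and 6 were lower, with sums of 783 to 879 CPM in the knockout and 970 to 1046 CPM in wild type. The part of these shifts in the results on the 10 genes was not tested.

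The 10 genes spanned a wide range of levels, with Ddah2 and the late BH4 enzymes Spr and Pts at the top and Ass1 and Arg1 at the bottom. CAGE reads mark transcript starts, so a CPM does not grow with gene length. No source used here says whether reads were counted by strand or how reads matching several genes were handled. The order of levels is therefore a description. The place of Ass1 is that of its own entry, without the near-identical copy Gm5424 described below, and is uncertain. The means over the 8 libraries were 79.6 CPM for Ddah2, 74.7 CPM for Spr, 53.1 CPM for Pts, 22.5 CPM for Asl, 12.02 CPM for Ddah1, 9.82 CPM for Gch1, 7.68 CPM for Arg2, 5.22 CPM for Gchfr, 3.32 CPM for Ass1 and 1.84 CPM for Arg1. Ddah2 and Spr did not separate, since Ddah2 was the higher in 4 of 8 libraries. Spr, Pts and Asl each kept clear of the next gene down in all 8 libraries, without overlap of their ranges. From Ddah1 downward the ranges of neighbours overlapped. The plot of CPM by gene and library shows this order.

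**Figure D1:**
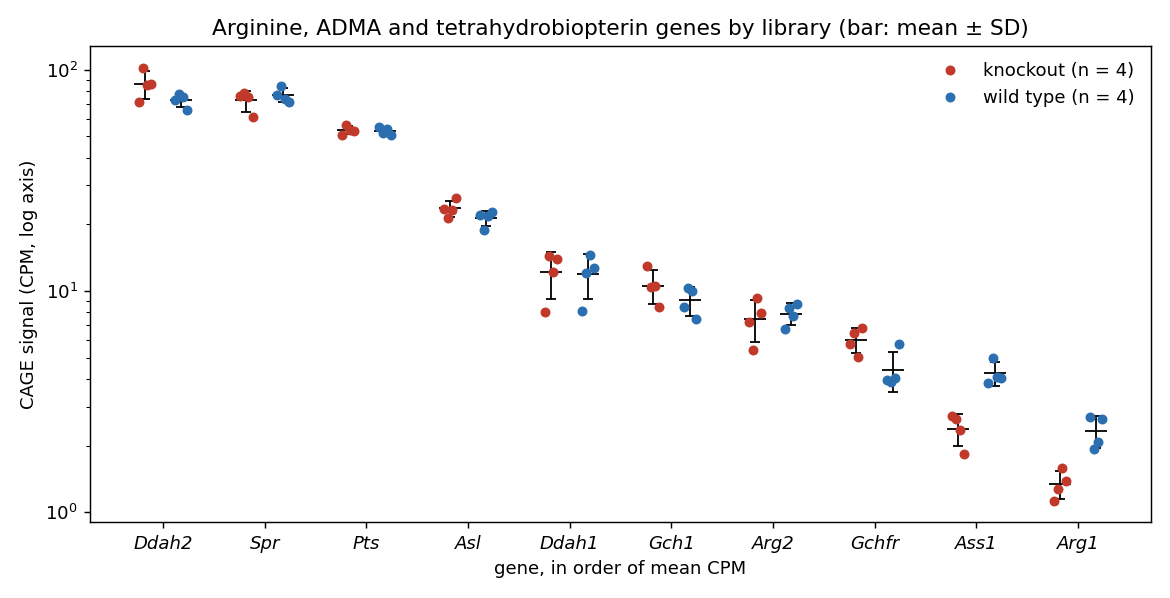
CAGE signal of the 10 genes in CPM on a log axis, with 1 point per library, knockout left of wild type, and a bar at the mean ± SD (n = 4 each). Ass1 and Arg1, at the low end, are the genes whose knockout points lie wholly below the wild type points.

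Most of the 10 genes did not pass the test for a difference between genotypes. Ass1 and Arg1 were lower in the knockout, Gchfr was higher, and 7 were not called at an adjusted p under 0.05 (limma on log2(CPM + 0.5), Benjamini-Hochberg over the 14065 genes tested). These are 3 of the 10 genes, against 30.9% of all genes tested with limma and 32.5% with edgeR, so the share called was near that background. Of all genes tested 16.6% were called higher and 14.3% lower. Groups did not overlap for 2 of the 10 genes, and for 31.2% of all genes tested. The median log2 fold change of the 10 was 0.02, against 0.01 over all genes tested, and the median size was 0.17 against 0.19. All 10 passed the filter on low values. In whole lung, fewer cells of a type and less RNA per cell cannot be told apart.

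**Figure D2:**
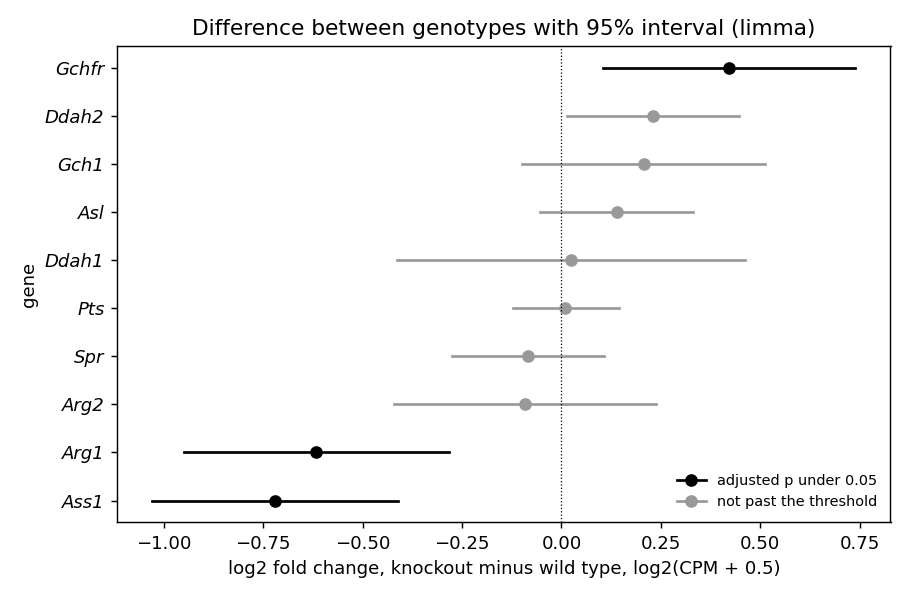
Log2 fold change, knockout minus wild type, on log2(CPM + 0.5), with its 95% interval from limma for each of the 10 genes. Ass1 (-0.72) and Arg1 (-0.62) lie below 0, Gchfr (0.42) lies above it, and grey marks the 7 genes that did not pass the threshold.

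The cytosolic arginase gene Arg1, which in mice marks alternatively activated macrophages and is the hepatic urea cycle enzyme, was the least abundant of the 10. It was at 1.13, 1.28, 1.59 and 1.38 CPM in knockout lungs, and at 2.69, 1.94, 2.08 and 2.63 CPM in wild type lungs. Every knockout library was below every wild type library. On the log2 scale, Arg1 fell by 0.62 (SE 0.152, 95% interval -0.95 to -0.28, limma adjusted p = 0.0107). These values rest on few reads, 17 to 23 per knockout library and 36 to 45 per wild type library. The call held under all 18 alternatives of normalization, filter, tool and left-out library (adjusted p = 0.00885 to 0.0358).

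No macrophage marker was called lower in the knockout by limma or edgeR. DESeq2 called 1 lower, and 1 was lower at an unadjusted limma p under 0.05. Of all genes tested, limma called 16.6% higher and 14.3% lower. Of 10 alveolar macrophage markers 8 had a row, of which 3 (Marco, Plet1 and Ear2) were called higher, and their summed level was 566 to 738 CPM in the knockout and 613 to 748 CPM in wild type. Of 9 monocyte and interstitial macrophage markers 3 were called higher by limma, Csf1r and C1qc among them, with sums of 285 to 321 CPM in the knockout and 246 to 270 CPM in wild type. Of 8 neutrophil markers 7 were tested and 0 were called by limma, against 1 lower by edgeR, by DESeq2 and at an unadjusted limma p under 0.05, with sums of 217 to 432 CPM in the knockout and 253 to 383 CPM in wild type. Hepatocyte markers were near 0: the 2 of 7 that had a row, Alb and Serpina1a, summed to 0.14 to 0.49 CPM in the knockout and 0.36 to 1.15 CPM in wild type. No marker of these lists with a row was at 0 in all libraries. The part of macrophage numbers or of other cell types in the Arg1 result was not tested.

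Arg2, the mitochondrial arginase, was the more abundant isoform in every library. It was at 7.22, 5.41, 9.25 and 7.99 CPM in knockout lungs and at 6.70, 8.34, 7.74 and 8.78 CPM in wild type lungs. The groups overlapped throughout, with both the lowest and the highest value in the knockout. Its log2 fold change was -0.09 (95% interval -0.42 to 0.24, limma adjusted p = 0.676). That interval spans 0.747 to 1.18-fold. Arg2 overlaps the listed gene Vti1b on the other strand, and no source used here says whether reads were counted by strand.

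Ass1, argininosuccinate synthase, which joins citrulline and aspartate and limits the rebuilding of arginine, showed the largest difference of the 10. It was at 2.72, 2.64, 2.35 and 1.84 CPM in knockout lungs and at 3.83, 5.0, 4.10 and 4.04 CPM in wild type lungs. All 4 knockout values were below the lowest wild type value. The means were 2.39 ± 0.398 CPM in the knockout and 4.24 ± 0.518 CPM in wild type (SD, n = 4 each). This is a fall of 0.72 in log2 terms (log2 fold change -0.72, SE 0.141, 95% interval -1.03 to -0.41, limma adjusted p = 0.00333). The read counts were 24 to 41 per knockout library and 63 to 93 per wild type library, and the call held under all 18 of the same alternatives (adjusted p = 0.00052 to 0.0131).

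Ass1 has a near-identical copy, Gm5424, a processed pseudogene on chromosome 10 that the authors list as a gene of its own. Its annotated transcript of 1240 nt matches the Ass1 mRNA, from chromosome 2, from nt 203, the first base of the coding sequence, to nt 1442 with 99.5% identity, 6 mismatches and 0 gaps. Of all 75-nt stretches of that match, the length of the sequencing reads, 65.3% are identical in both. That share concerns reads that start inside the match. A 75-nt read from the annotated start of the Ass1 mRNA lies before the match. The first 202 nt of the Ass1 mRNA, which hold its annotated 5′ end, have no counterpart in the annotated Gm5424 transcript. Another annotated Ass1 transcript does match Gm5424 near its start, at its nt 106 to 200. Reads from the start of that transcript were not looked at separately. A 75-nt stretch of coding sequence, nt 579 to 653 of the Ass1 mRNA in GENCODE M21, shows how few bases tell the entries apart, with the mismatched bases in capitals.
Ass1: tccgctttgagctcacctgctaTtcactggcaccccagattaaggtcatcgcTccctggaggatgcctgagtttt
Gm5424: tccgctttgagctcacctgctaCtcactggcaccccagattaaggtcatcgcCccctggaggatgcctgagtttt

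Gm5424 had more signal than Ass1 in every library. It was at 7.42, 8.66, 10.4 and 8.76 CPM in knockout lungs and at 11.1, 12.2, 13.6 and 13.8 CPM in wild type lungs. The groups did not overlap, and the log2 fold change of Gm5424 was -0.50 (SE 0.114, limma adjusted p = 0.00737). Ass1 was 17.4 to 26.8% of the sum of both entries in the knockout and 22.7 to 29.2% in wild type. The sum was 11.2 ± 1.15 CPM in the knockout and 16.9 ± 1.33 CPM in wild type (SD, n = 4 each) with a log2 fold change of -0.57 (SE 0.0962, limma adjusted p = 0.00142), a combination chosen after the values were seen. No source used here says how reads that match both were handled, so the level of Ass1 is uncertain. The sum does not depend on how kept reads were divided, but does on any that were dropped.

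**Figure D3:**
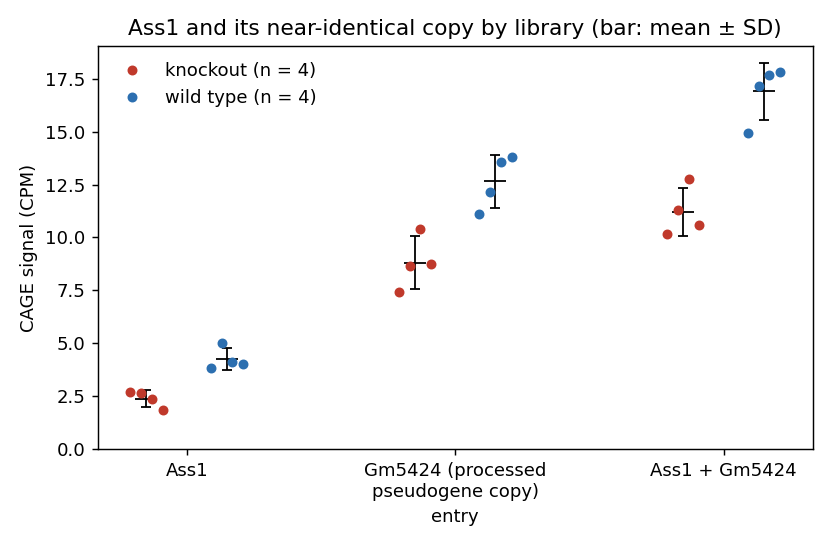
CAGE signal in CPM of Ass1, of its processed pseudogene copy Gm5424 and of their sum, with 1 point per library, knockout left of wild type, and a bar at the mean ± SD (n = 4 each). For each of the 3 entries all knockout points lie below all wild type points, and the sum averages 11.2 CPM in the knockout and 16.9 CPM in wild type.

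The Ass1 promoter carries an E-box, CACGTG, the element bound by the circadian activator pair and by other basic helix-loop-helix factors. It is shown because Ass1 gave the largest difference among genes that have a sequence in the RefSeq promoter table (GRCm38.p6), which covers 7 of the 10 genes. Over the 250 bases upstream of the start, CACGTG (its own reverse complement) is found in 1 of those 7 genes and in 6.0% of the 32851 promoters in the table. The window printed is chr2:31470120-31470269, GRCm38.p6, plus strand, the 150 bases that end just before the annotated start. Capitals mark the E-box and a GC box, GGGCGG, searched on both strands and found in 6 of the 7 genes and in 32.7% of all promoters.
Ass1: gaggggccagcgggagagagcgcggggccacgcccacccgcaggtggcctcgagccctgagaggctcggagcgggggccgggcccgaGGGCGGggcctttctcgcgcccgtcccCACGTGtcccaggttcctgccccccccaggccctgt
The match is a description of these letters, and binding at this site was not tested.

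By the correlation of log2(CPM + 0.5) over the 8 libraries, the genes most like Ass1 were Cab39 (r = 0.988), Nfkb1 (r = 0.986) and Tmeff1 (r = 0.985). Cab39 averaged 60.9 ± 8.63 CPM in the knockout and 87.1 ± 6.13 CPM in wild type, Nfkb1 45.6 ± 4.71 CPM in the knockout and 58.3 ± 3.09 CPM in wild type (SD, n = 4 each). These coefficients are picked from 14065 genes over libraries that share genotype and depth, and are given as a description.

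Asl, argininosuccinate lyase, which releases arginine in the next step, was at 23.6, 21.3, 23.3 and 26.2 CPM in knockout lungs and at 22.0, 18.9, 21.8 and 22.8 CPM in wild type lungs. The groups overlapped. Its log2 fold change was 0.14 (95% interval -0.05 to 0.33, limma adjusted p = 0.25), an interval of 0.964 to 1.26-fold. In all 8 libraries Asl was above the Ass1 entry, whose level is uncertain. The sum of Ass1 and Gm5424 came closer, at 17.15 CPM in wild type replicate 2 against 18.9 CPM for Asl.

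Summed endothelial markers overlapped between genotypes. The 10 markers summed to 2010 to 2205 CPM in the knockout and 1948 to 2119 CPM in wild type, and 3 of them (Cdh5, Tie1 and Emcn) were called higher and 0 lower by limma, against 2 lower by edgeR, by DESeq2 and at an unadjusted limma p under 0.05. The 10 alveolar type 2 markers, with 82.0% of their signal from Sftpc, summed to 48348 to 60000 CPM in the knockout and 80048 to 96732 CPM in wild type, with 2 higher and 4 lower. None of either list was at 0 in all libraries. Among all genes tested, limma called 16.6% higher and 14.3% lower. The part of endothelial or alveolar type 2 cells in the Ass1 result was not tested.

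The dimethylarginine hydrolase genes differed in level more than in response to genotype. Ddah1 was at 8.02, 14.4, 12.2 and 13.9 CPM in knockout lungs and at 8.13, 12.1, 14.6 and 12.8 CPM in wild type lungs. Replicate 1 was the lowest in each genotype, and the groups overlapped over nearly their whole range. Between genotypes the log2 fold change was 0.02 (95% interval -0.41 to 0.46, limma adjusted p = 0.939), an interval that spans 0.75 to 1.38-fold. Of the 10 genes, Ddah1 had the widest interval.

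Ddah2, the most abundant of the 10, was at 71.6, 102, 84.9 and 86.1 CPM in knockout lungs and at 73.2, 77.8, 74.9 and 65.9 CPM in wild type lungs. Knockout replicates 2 to 4 were above all wild type libraries, while knockout replicate 1 was below 3 of them. The means were 86.2 ± 12.5 CPM in the knockout and 73.0 ± 5.07 CPM in wild type (SD, n = 4 each). Its log2 fold change was 0.23 (SE 0.0987, 95% interval 0.01 to 0.45) and did not pass the threshold (limma adjusted p = 0.0985). Without knockout replicate 1 it was 0.32 and did (limma adjusted p = 0.0186), and leaving out any other library gave an adjusted p of up to 0.229.

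BH4 synthesis opens with Gch1, GTP cyclohydrolase. It was at 12.9, 10.4, 10.5 and 8.45 CPM in knockout lungs and at 8.49, 10.3, 10.1 and 7.44 CPM in wild type lungs. The highest value was in the knockout and the lowest in wild type, with the other 6 intermixed. For Gch1 the log2 fold change was 0.21 (95% interval -0.10 to 0.51, limma adjusted p = 0.28), an interval that spans 0.935 to 1.43-fold. Knockout replicate 1 held the highest Gch1 value.

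Gchfr, the feedback regulator that binds GTP cyclohydrolase and lets BH4 inhibit it, was the only gene of the 10 called higher. It was at 5.76, 6.49, 5.04 and 6.84 CPM in knockout lungs and at 3.95, 3.87, 4.04 and 5.77 CPM in wild type lungs. All knockout values were above wild type replicates 1 to 3, but wild type replicate 4 lay within the knockout range. The means were 6.03 ± 0.80 CPM in the knockout and 4.41 ± 0.911 CPM in wild type (SD, n = 4 each), from 73 to 96 reads per knockout library and 66 to 90 reads per wild type library. The log2 fold change was 0.42 (SE 0.145, 95% interval 0.10 to 0.74, limma adjusted p = 0.0463).

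The Gchfr call is the least firm of the 3. It was lost with edgeR (adjusted p = 0.0704) and DESeq2 (adjusted p = 0.0732) on recovered reads, with TMM or median-ratio scaling, without the filter on low values, and on leaving out any library other than the third knockout and the fourth wild type replicate (limma adjusted p = 0.0606 to 0.116 without these libraries). The direction was the same in all 18 alternatives, with log2 fold changes of 0.36 to 0.55. The genes most like Gchfr over the 8 libraries were AL603664.1 (r = 0.978), Srcap (r = 0.978) and Axin2 (r = 0.969).

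The promoters of Gch1 and Gchfr are shown next to each other because their products act on each other. In the RefSeq table (GRCm38.p6) both hold GC boxes, GGGCGG, and a CCAAT box, CCAAT, on either strand, in capitals here. The CCAAT box is found in 2 of the 7 genes and in 33.8% of all promoters over the 250 bases upstream, and the printed windows are the last 150 of these. The windows are chr14:47189414-47189563, minus strand, for Gch1 and chr2:119167638-119167787, plus strand, for Gchfr.
Gch1: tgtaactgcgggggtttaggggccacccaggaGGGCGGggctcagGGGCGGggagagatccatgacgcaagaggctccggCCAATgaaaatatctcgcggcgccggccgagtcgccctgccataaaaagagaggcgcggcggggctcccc
Gchfr: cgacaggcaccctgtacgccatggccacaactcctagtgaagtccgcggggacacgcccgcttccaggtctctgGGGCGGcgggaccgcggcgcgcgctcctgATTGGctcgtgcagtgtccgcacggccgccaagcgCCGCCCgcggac
Neither holds CACGTG in the 250 bases searched, and a TATA box, TATAAA on either strand, is found further upstream in Gch1 alone of the 7 genes and in 12.4% of all promoters.

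Pts, the enzyme of the middle step, varied little between libraries for its level, and its log2 fold change had the smallest SE of the 10 (0.0609). It was at 50.9, 56.2, 53.3 and 52.6 CPM in knockout lungs and at 55.3, 51.7, 53.7 and 50.8 CPM in wild type lungs. The groups overlapped, and their means of 53.3 ± 2.21 CPM in the knockout and 52.9 ± 2.02 CPM in wild type (SD, n = 4 each) lay within the spread. The log2 fold change was 0.01 (95% interval -0.12 to 0.14, limma adjusted p = 0.912), and its sign turned with TMM, median-ratio or quantile scaling and with edgeR and DESeq2. The interval spans 0.918 to 1.105-fold.

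Spr, sepiapterin reductase, which completes BH4, was at 75.8, 78.5, 75.0 and 60.9 CPM in knockout lungs and at 77.2, 84.5, 73.6 and 71.6 CPM in wild type lungs. Knockout replicate 4 was the lowest of the 8, and the other 7 were intermixed. For Spr the log2 fold change was -0.08 (95% interval -0.28 to 0.11, limma adjusted p = 0.493), an interval of 0.826 to 1.08-fold. Both late enzymes thus stood well above Gch1 in every library of either genotype.

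For 4 pairs of genes the log2 ratio of (CPM + 0.5) within each library was compared between genotypes. Ass1 stands here for its own entry, without Gm5424. Ass1 over Asl was lower in the knockout, with a mean log2 ratio of -3.07 ± 0.316 in the knockout and -2.21 ± 0.262 in wild type (SD, n = 4 each). The groups did not overlap, which gave the smallest p this design allows (exact permutation test, two-sided, p = 0.0286), and p = 0.114 after adjustment over the 4 ratios. Arg2 over Arg1 was 2.09 ± 0.243 in the knockout and 1.57 ± 0.289 in wild type on the log2 scale (exact permutation p = 0.0571, adjusted p = 0.114). Neither passed the threshold after adjustment, which in a design of this size no ratio could do unless at least 3 of the 4 separated fully.

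The other ratios overlapped between genotypes. Ddah1 over Ddah2 was -2.80 ± 0.206 in the knockout and -2.59 ± 0.365 in wild type, and Gch1 over Gchfr was 0.75 ± 0.368 in the knockout and 0.97 ± 0.435 in wild type (log2 ratio, SD, n = 4 each; exact permutation p = 0.40 and 0.457, adjusted p = 0.457 for both). Gch1 was above Gchfr and Ddah2 above Ddah1 in all 8 libraries.

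**Figure D4:**
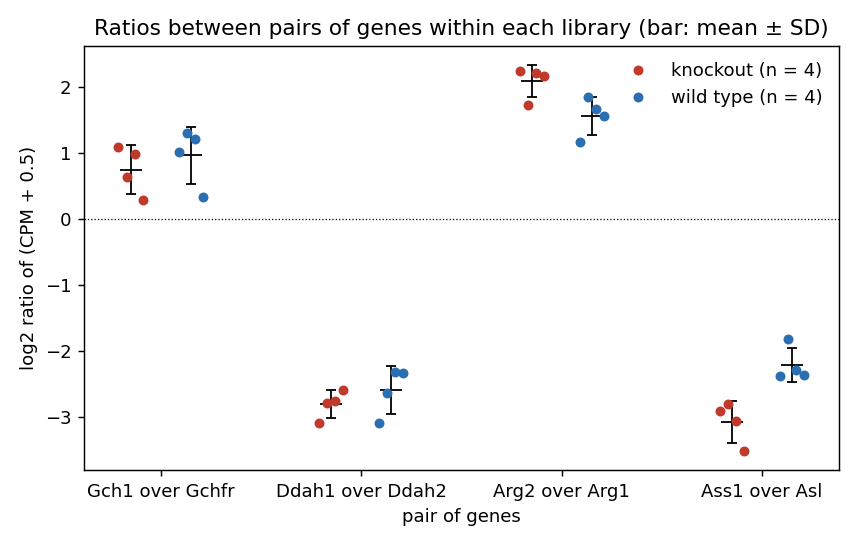
Log2 ratio of (CPM + 0.5) between 4 pairs of genes within each library, with 1 point per library, knockout left of wild type, and a bar at the mean ± SD (n = 4 each). The genotypes are clear of each other for Ass1 over Asl, where the difference is -0.86, and overlap for the other 3 pairs.

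Beyond the 10 genes, 64 others were looked up: amino acid carriers, and genes that methylate or use arginine or that recycle or use BH4. Of these 50 had a row and 49 were tested. Among the tested genes 3 were higher and 17 lower in the knockout, 40.8% in all, against 30.9% of all genes tested. Their median log2 fold change was -0.13, against 0.01 over all genes tested. The lists were chosen with earlier results of these data known, and Slc7a8 passed the filter through the knockout alone. These shares are therefore a description and not a test.

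Of 12 amino acid carriers tested, 1 was higher and 3 were lower. The share called, 33.3%, was near the 30.9% of all genes tested. The cationic amino acid transporter genes Slc7a1 and Slc7a2, the textbook routes of arginine uptake, were not called. Slc7a1 was at 4.17, 3.31, 4.00 and 4.15 CPM in knockout lungs and at 4.43, 4.73, 4.79 and 4.94 CPM in wild type lungs (limma adjusted p = 0.11), without overlap. Slc7a2 averaged 19.9 ± 3.35 CPM in the knockout and 20.6 ± 0.693 CPM in wild type (SD, n = 4 each). Of the carriers called, Slc7a8 and Slc7a5 exchange neutral amino acids and Slc25a15 carries ornithine. Slc6a14 takes neutral and cationic amino acids.

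Slc7a8, a neutral amino acid exchanger, was at 2.91, 3.38, 3.59 and 3.77 CPM in knockout lungs and at 0.96, 0.91, 0.64 and 0.77 CPM in wild type lungs. It passed the filter on low values through the knockout alone, so it had to differ, and its place among the 3 genes counted as higher is a description. Slc7a5, its relative that imports large neutral amino acids, was at 1.72, 2.16, 2.83 and 2.31 CPM in knockout lungs and at 6.70, 6.94, 5.08 and 6.41 CPM in wild type lungs (log2 fold change -1.31, limma adjusted p = 0.000127). For neither exchanger did the genotypes overlap. Slc6a14, which carries neutral and cationic amino acids, averaged 18.7 ± 1.20 CPM in the knockout and 24.4 ± 2.54 CPM in wild type. Slc25a15, the mitochondrial ornithine carrier, averaged 5.74 ± 1.17 CPM in the knockout and 8.17 ± 0.433 CPM in wild type (SD, n = 4 each, limma adjusted p = 0.0107 and 0.0174). Slc7a5 and Slc6a14 each overlap another listed gene.

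Of the 9 protein arginine methyltransferase genes tested, 4 (44.4%) were lower and 0 higher by limma, against 14.3% and 16.6% of all genes tested. This list was chosen with earlier results of these data known, so the share is a description. With edgeR 4 were lower and with DESeq2 3, without Prmt7, and 0 were higher with either tool or at an unadjusted limma p under 0.05. These enzymes place the methyl groups that are later set free as methylarginines. Prmt8, a membrane-bound form, was at 4.84, 4.53, 7.04 and 4.76 CPM in knockout lungs and at 11.1, 12.1, 10.3 and 14.0 CPM in wild type lungs (log2 fold change -1.11, SE 0.144, limma adjusted p = 0.000306). Carm1, which asymmetrically methylates histones and coactivators, was at 4.97, 4.6, 3.45 and 3.23 CPM in knockout lungs and at 8.25, 9.20, 7.62 and 7.56 CPM in wild type lungs (log2 fold change -0.94, SE 0.141, limma adjusted p = 0.000735). Neither overlapped between genotypes. Carm1 overlaps the listed gene Yipf2 on the other strand.

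Prmt1, the main asymmetric methyltransferase, averaged 45.8 ± 5.48 CPM in the knockout and 55.9 ± 5.30 CPM in wild type (SD, n = 4 each, limma adjusted p = 0.0447). The groups overlapped, and its call ended without any 1 of 5 libraries (knockout replicates 3 and 4, wild type replicates 1, 2 and 3; adjusted p up to 0.117). Prmt7, which adds only the first methyl group, averaged 5.29 ± 0.42 CPM in the knockout and 6.67 ± 0.528 CPM in wild type (limma adjusted p = 0.0419), and held its call in 8 of 18 alternatives. Among left-out libraries, the call stood only without the third knockout or the first wild type replicate (adjusted p up to 0.111). The other 5, Prmt2, Prmt3, Prmt5, Prmt6 and Prmt9, were not called.

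BH4 recycling was represented by 7 tested genes, of which 2 were lower and 0 higher by limma, edgeR and DESeq2 (0 higher at an unadjusted p under 0.05 by limma). The share called, 28.6%, was near the 30.9% of all genes tested. Pcbd1, which dehydrates the oxidized cofactor, was at 12.8, 11.5, 11.9 and 11.7 CPM in knockout lungs and at 17.3, 15.2, 15.4 and 13.5 CPM in wild type lungs (log2 fold change -0.34, limma adjusted p = 0.0156). Cbr1, a carbonyl reductase, averaged 44.0 ± 2.46 CPM in the knockout and 53.0 ± 1.53 CPM in wild type (SD, n = 4 each, limma adjusted p = 0.00925). Neither gene overlapped between genotypes. Qdpr, the dihydropteridine reductase that regenerates BH4, averaged 88.3 ± 3.61 CPM in the knockout and 83.6 ± 7.59 CPM in wild type (limma adjusted p = 0.405). Agmo, a BH4-dependent enzyme that cleaves ether lipids, averaged 6.76 ± 1.13 CPM in the knockout and 9.32 ± 1.09 CPM in wild type (limma adjusted p = 0.0278), a call that ended when any of 5 libraries was left out (replicates 2 and 3 of the knockout, 1, 2 and 4 of wild type; adjusted p up to 0.0813).

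The largest list, arginine, ornithine, polyamine and creatine metabolism, had 20 tested genes, of which 2 were higher and 7 lower. The share called was 45.0%, against 30.9% of all genes tested, and is a description, since this list too was chosen with earlier results known. Odc1, ornithine decarboxylase, which opens polyamine synthesis from the product of arginase, was at 18.95, 13.9, 8.63 and 9.14 CPM in knockout lungs and at 19.5, 23.1, 22.2 and 27.4 CPM in wild type lungs (log2 fold change -0.90, SE 0.212, limma adjusted p = 0.00877). Knockout replicate 1 came close to the lowest wild type value, without overlap. Odc1 has a listed near-identical copy, Gm17709, with more signal than Odc1 in every library. The copy was at 27.9 to 52.1 CPM in the knockout and 57.7 to 98.0 CPM in wild type. As for Ass1, the level of Odc1 is uncertain. Sat1, which acetylates polyamines for export, was at 159, 109, 150 and 142 CPM in knockout lungs and at 212, 207, 213 and 220 CPM in wild type lungs (log2 fold change -0.62, limma adjusted p = 0.0012). The groups did not overlap for Sat1 either, while Sat2, Smox and Paox, also of polyamine breakdown, and Amd1, of synthesis, were not called.

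Glul, glutamine synthetase, averaged 17.97 ± 0.477 CPM in the knockout and 25.5 ± 3.89 CPM in wild type (SD, n = 4 each, limma adjusted p = 0.00552). Glul overlaps the listed gene Teddm2 on the other strand. Srm, Aldh18a1 and Azin2 were lower too. Sms, spermine synthase, and Azin1, which shields ornithine decarboxylase from degradation, were the genes called higher, Sms at 52.3 ± 5.56 CPM in the knockout and 42.8 ± 3.17 CPM in wild type and Azin1 at 58.1 ± 8.41 CPM in the knockout and 44.3 ± 6.17 CPM in wild type (limma adjusted p = 0.0311 and 0.0318). Sms lost its call when replicate 1 or 3 of the knockout or any of wild type replicates 1 to 3 was left out. Azin1 lost it when replicate 2 or 3 of the knockout, or 3 or 4 of wild type, was left out. Leaving out replicate 3 of either genotype therefore left 1 gene, Slc7a8, called higher among the 49. Oat and the creatine genes Gatm and Gamt had log2 fold changes between -0.02 and 0.01.

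**Figure D5:**
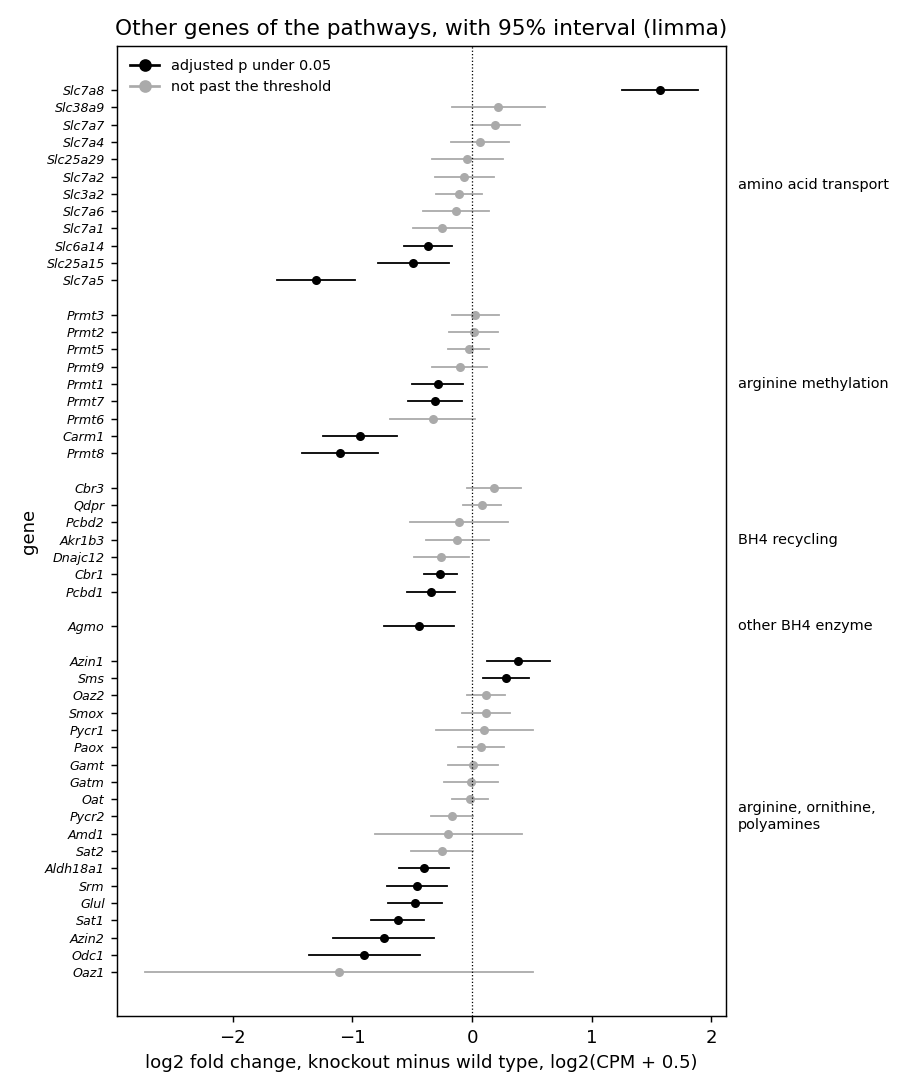
Log2 fold change, knockout minus wild type, on log2(CPM + 0.5), with its 95% interval from limma for 48 of the 49 other genes tested, grouped by role. Black marks genes past the threshold, 3 above 0 and 16 below it, and the long interval of Oaz1 comes with 224.9 CPM in wild type replicate 2 against at most 15.9 CPM in the other 7 libraries.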

How the data were processed

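The deposited table holds CPM of 15728 genes, whose columns total 1000000 within rounding. Per the submitters' processing notes, HISAT2 2.0.5, BWA 0.7.12-r1039, edgeR and the mm9 build were used, without role or order, and per the labels' protocols reads were single-end, 75 nt. CPM were whole multiples of the value of 1 read, and 100% of values gave whole reads within 0.1 reads. No step beyond scaling to the total is visible.

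The 14065 genes that reached 1 CPM in 4 or more of the 8 libraries entered limma 3.58.1 as log2(CPM + 0.5) (R 4.3.3, variance trend, genotype only), which understates changes of low genes. Adjusted p are two-sided Benjamini-Hochberg values over all genes tested. Recovered reads were also tested with edgeR 4.0.16 (4573 genes called, against 4351 with limma) and DESeq2 1.42.0. The limma fit was also run on simulated data in which far fewer genes changed than were called here. That run cannot show how the fit behaves on data like these. Differences within a library were compared by exact permutation of the 8 libraries.

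The 10 genes and all lists were chosen with earlier results of these data known. Of each list, text values were given for the called genes with the smallest adjusted p, up to 4. They were also given for the 10 genes and Nos3. The 3 genes most correlated with the member that rose most, and with the one that fell most, were included. Values of Gm5424, Gm17709, Slc7a1, Slc7a2, Qdpr, Sms, Azin1, Oaz1, Oat, Gatm and Gamt were added after values were seen. Some genes of these lists are counted but not reported by name here. Names come from GENCODE M21 by Ensembl identifier (15066 of 15728 matched). A copy is a transcript with at least 97% identity over at least 75 nt of the first 200 nt of any annotated transcript of the gene. Within a genotype, no library repeated another (chi-square of 11.9 to 20.1 per gene for each pair). Replicate numbers did not pair the libraries: deviations of same-numbered libraries correlated at -0.00287 to 0.0646.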

Additional observations from a re-analysis of the deposited data

Results flagged for a closer look

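Among the 59 genes described, each tested in both genotypes for a library far from the other 3 of its group, 10 of 118 groups stood out, and chance flags about 1 in 20. Gchfr was at 5.77 CPM in wild type replicate 4, against at most 4.04 CPM in the other wild type libraries, and this is the library that overlaps the knockout range. Oaz1, the antizyme that directs ornithine decarboxylase to degradation, was at 224.91 CPM in wild type replicate 2, against at most 15.85 CPM in the other wild type libraries. Prmt6 was at 5.26 CPM in wild type replicate 4, against at most 3.23 CPM. Slc38a9 was at 6.29 CPM in wild type replicate 3, against at most 4.30 CPM. Cbr3 was at 21.77 CPM in wild type replicate 1, against at least 27.19 CPM. Knockout replicate 3 held 4 of the 10: Slc6a14 at 20.5 CPM against at most 18.22 CPM in the other knockout libraries, Prmt5 at 25.88 CPM against 24.13 CPM, Prmt8 at 7.04 CPM against 4.84 CPM and Amd1 at 7.18 CPM against 3.25 CPM. Glul was at 18.68 CPM in knockout replicate 1, against at most 17.78 CPM in the other knockout libraries.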

How the results depend on the processing

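Each of the 10 genes was refitted under 18 alternatives. Ass1, Arg1, Asl, Gch1 and Spr kept their direction and their side of the threshold in all of them. The 4 ratios kept their direction in 11 alternatives each, and with this few libraries they could hardly pass in any. Arg2 over Arg1 moved between 0.42 and 0.65 with the pseudocount. Gchfr kept its direction but not its call with edgeR or DESeq2 (log2 fold change 0.435 each), TMM scaling (0.403), median-ratio scaling (0.402) or no filter (0.421), which left 0 of the 10 genes called higher, and ranged from 0.362 to 0.545 when 1 library was left out, with 0 to 1 called higher. Pts turned to -0.009 with edgeR, DESeq2 and TMM scaling, -0.010 with median-ratio scaling and -0.020 with quantile normalization, and ranged from -0.016 to 0.032 when 1 library was left out. On leaving out 1 library, Arg2 ranged from -0.196 to 0.044, Ddah1 from -0.141 to 0.202, Ddah2 from 0.145 to 0.315, and the other pathway genes called higher from 1 to 3. The cause was not tested. A fit with the replicate number as a block called 1 of the 10 genes higher and 2 lower, and 2384 of all genes higher and 2014 lower, against 2341 and 2010 without it. With the block Agmo, Prmt7 (adjusted p = 0.0513 and 0.0672) and Sms were not called, which left 2 other pathway genes higher and 15 lower, against 3 and 17 without it, and the blocked ratios kept adjusted p of 0.333 to 0.375. Not every library correlated best with its own number. At 17 to 45 reads per library, small changes of Arg1 were not detectable.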
